A study of Mus musculus with 39 samples.

Results

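Transcripts of the TGF-β, myostatin and activin branch of signalling were followed in regenerating mouse muscle and in cells sorted from it. The 9 genes were taken by symbol from a table of 55011 genes: the ligands Tgfb1, Tgfb2, Tgfb3, Mstn and Inhba, the receptors Tgfbr1, Tgfbr2 and Acvr2b, and the antagonist Fst. Each symbol matched 1 row. The series holds 39 bulk RNA-seq libraries in 14 groups and concerns γδ T cells that make IL-17A in injured muscle. In the time course, whole tibialis anterior was collected 1, 3, 7 and 14 days after injury with the snake toxin cardiotoxin. Tcrd-DTR mice, in which γδ T cells carry the diphtheria toxin receptor, were compared with wild-type (WT) mice there, and both genotypes received diphtheria toxin by intraperitoneal injection. There were 3 libraries per genotype and day, except 2 for DTR on day 7. Satellite cells, the stem cells of skeletal muscle, were sorted on day 1 from injured muscle of toxin-treated DTR and WT mice, with 3 libraries each. In a separate experiment, injured wild-type mice received recombinant IL-17A (rIL-17A) or saline (PBS) into the peritoneum and the muscle, and whole muscle was taken on day 7 with 2 libraries each. Vγ6 T cells, a γδ subset, were sorted from day 3 injured muscle or from the lamina propria of uninjured colon of wild-type mice given no toxin, with 3 libraries each. No strain or age is stated in the sources used here.

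Ligands of this family are secreted as inactive precursors and signal, once activated, through paired type I and type II receptor kinases that phosphorylate Smad proteins. Tgfb1, Tgfb2 and Tgfb3 encode the TGF-β isoforms, which use Tgfbr2 as type II and Tgfbr1 as type I receptor and are known for driving matrix deposition and holding back myoblast differentiation. Myostatin (Mstn), made by muscle fibres, and activin A, a dimer of the Inhba product, limit muscle mass through Acvr2b and its relative Acvr2a. Follistatin (Fst) binds activin and myostatin and keeps them from their receptors.

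The stretches before 3 gene starts are shown because Inhba and Tgfb2 were the 2 genes higher in sorted satellite cells than in whole muscle and Mstn was close to 0 in the sorted cells. They are the 250 bases before the start in the RefSeq promoter table for GRCm38.p6, read on the gene's own strand, at chr1:53061390-53061639 (plus strand) for Mstn, chr1:186705990-186706239 (minus strand) for Tgfb2 and chr13:16011601-16011850 (plus strand) for Inhba. Capitals mark E-boxes, written CANNTG, the general form of the site that MyoD and related factors bind.
Mstn: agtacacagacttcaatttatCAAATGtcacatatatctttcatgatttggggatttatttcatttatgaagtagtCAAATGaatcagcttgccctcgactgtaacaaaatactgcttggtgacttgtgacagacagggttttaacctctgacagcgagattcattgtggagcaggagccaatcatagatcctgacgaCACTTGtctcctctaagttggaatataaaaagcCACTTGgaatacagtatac
Tgfb2: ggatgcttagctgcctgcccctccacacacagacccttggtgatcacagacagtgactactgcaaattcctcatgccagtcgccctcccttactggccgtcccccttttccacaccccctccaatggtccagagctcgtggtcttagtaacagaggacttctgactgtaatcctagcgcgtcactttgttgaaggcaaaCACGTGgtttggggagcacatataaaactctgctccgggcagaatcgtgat
Inhba: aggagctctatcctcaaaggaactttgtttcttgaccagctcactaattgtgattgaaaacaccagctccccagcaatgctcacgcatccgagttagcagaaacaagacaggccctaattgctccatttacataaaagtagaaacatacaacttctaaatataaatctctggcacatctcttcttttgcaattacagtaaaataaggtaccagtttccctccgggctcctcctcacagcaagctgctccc
The Mstn stretch held 4 E-boxes, the Tgfb2 stretch 1 and the Inhba stretch 0. Over all 32851 promoters of the table, 66.2% held at least 1 E-box on either strand in the same window. The letters of a TATA box, TATAAA, stood in each of the 3 stretches and in 12.4% of all promoters. They began 29 bases before the start of Mstn and 31 before that of Tgfb2, but 91 before that of Inhba. The Smad box CAGAC occurred 2 times before Mstn, 2 times before Tgfb2 and not before Inhba, and 42.2% of promoters held it on either strand. The AP-1 motif TGANTCA occurred 1 time before Mstn and in 6.75% of promoters, and its first bases overlapped the end of the E-box that starts 174 bases before the gene. These matches describe the letters only, and no binding was measured. Fst and Tgfb3 were not among the promoters matched by symbol.

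On GRCm38, Tgfb1 lies at chr7:25687002-25705077 on the plus strand, Tgfb2 at chr1:186622792-186705989 on the minus strand and Tgfb3 at chr12:86056745-86079041 on the minus strand. Tgfbr1 lies at chr4:47353222-47414931 (plus), Tgfbr2 at chr9:116084293-116175360 (minus) and Acvr2b at chr9:119402118-119434995 (plus). Mstn spans chr1:53061640-53068079 (plus), Inhba chr13:16011851-16031621 (plus) and Fst chr13:114452290-114458951 (minus). Counts cover whole genes, so no exon or UTR could be followed on its own.

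Library totals ran over 2372139 to 10974862 counts, and levels are CPM, counts scaled to the column total. The sorted cells carried the markers of their labels: the 5 satellite cell markers summed to 1752 to 2574 CPM in DTR and 2309 to 2566 CPM in WT satellite cells, and 108 to 477 CPM in whole muscle. The 5 T cell markers, γδ receptor genes among them, summed to 5377 to 5607 CPM in Vγ6 cells of muscle, against 3736 to 4179.7 CPM in those of colon. As a check of the depletion, counts were summed over γδ receptor genes, a set not limited to those among the T cell markers. The sums came to 10 in DTR and 64 in WT muscle on day 3. They were 19 (DTR) against 15 (WT) on day 1, 2 against 25 on day 7, and 7 against 25 on day 14. The exact two-sided permutation tests gave p = 0.1 on day 3, 0.3 on day 1, 0.5 on day 7 and 0.1 on day 14, and 0.1 is the smallest p these group sizes allow. Transcripts of 1959 olfactory and vomeronasal receptor genes, not known for a role in muscle, were high in DTR day 1 replicate 2 (2855 CPM), WT day 3 replicate 2 (1515 CPM), WT day 7 replicate 3 (1371 CPM) and all day 14 libraries (1427 to 1980 CPM). Results that change without the first 3 of these libraries are named below. In these bulk samples, fewer cells of a type and less RNA per cell cannot be told apart.

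**Figure D1:**
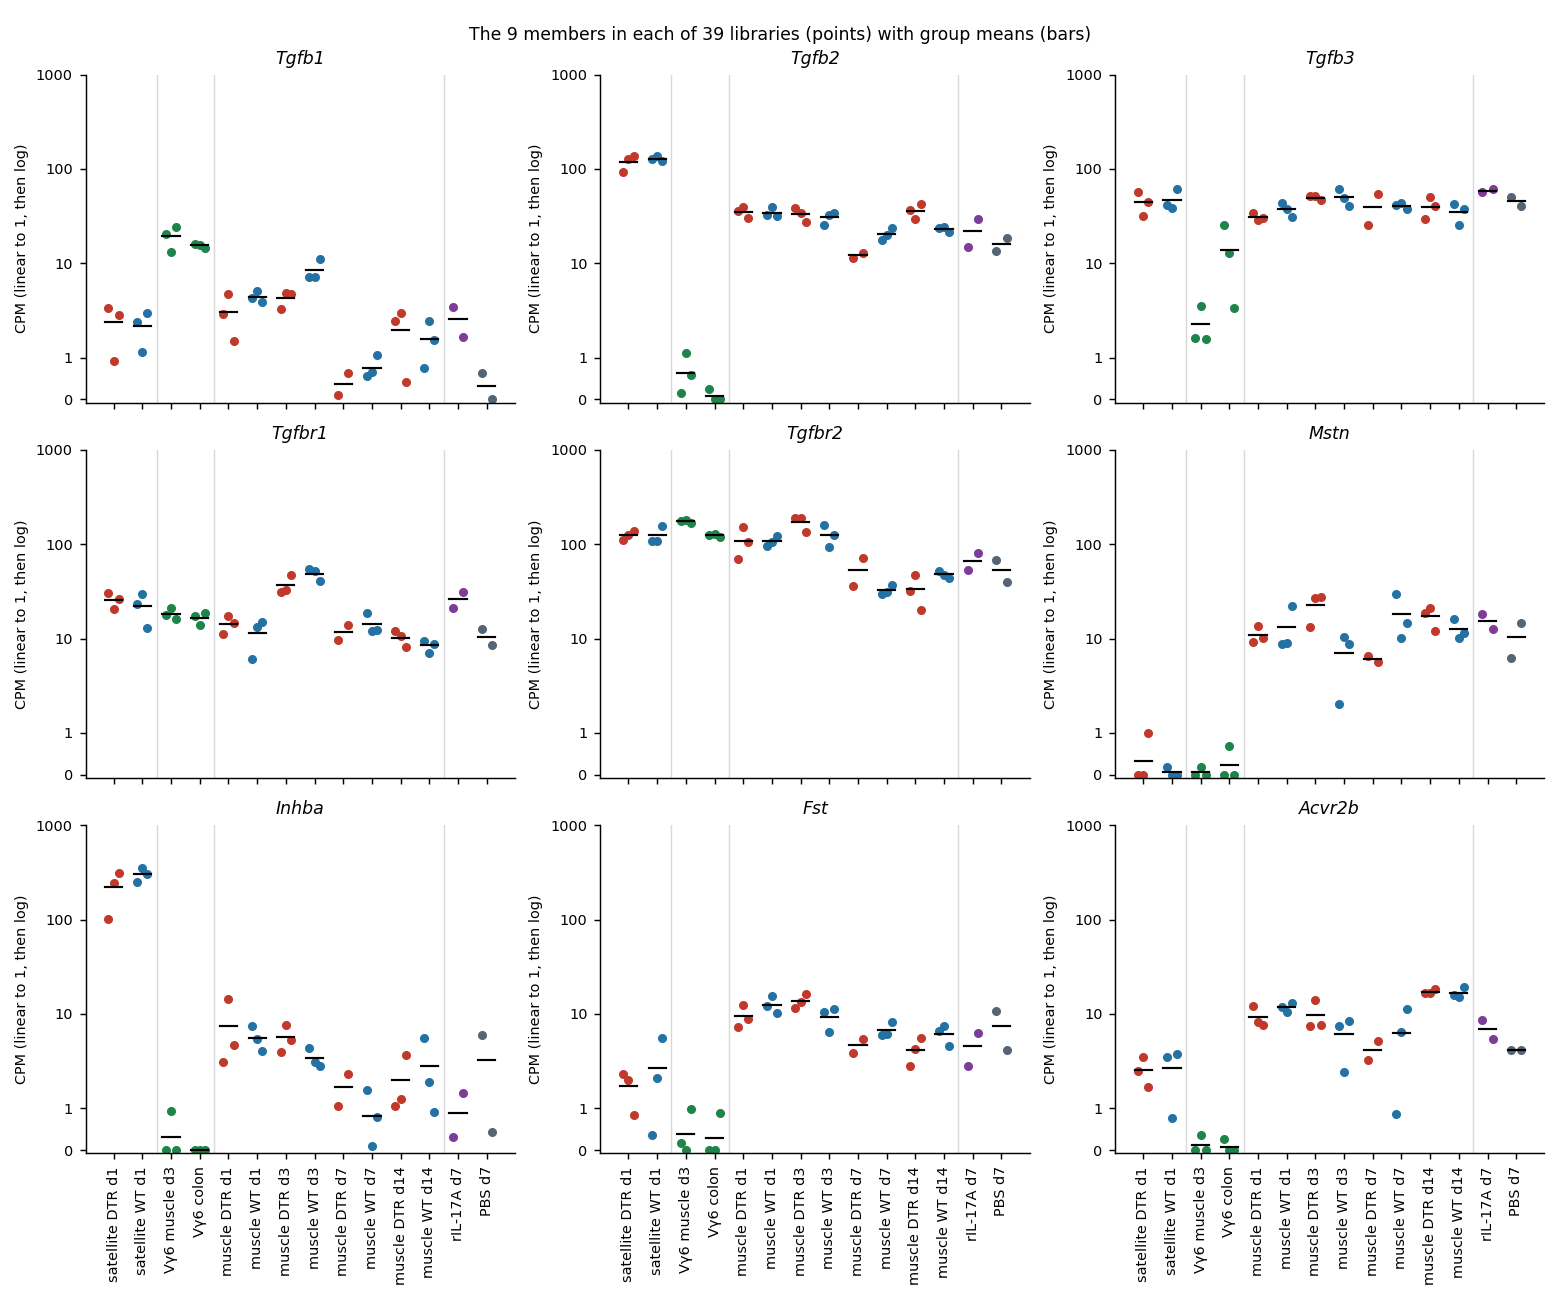
CPM of each gene in every library (points, linear to 1 and logarithmic above) by group, with group means as black bars; red marks DTR, blue WT, green Vγ6 cells, purple rIL-17A and grey PBS. Inhba reached 102 to 352 CPM in the 6 satellite cell libraries and at most 14.5 CPM elsewhere, Mstn stayed at or below 0.996 CPM in all sorted cells, and Tgfb1 was highest in Vγ6 cells.

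Levels were set per kilobase of the longest transcript so that genes can be compared. In satellite cells Inhba led, with group means of 34.3 CPM per kb in DTR and 47.1 CPM per kb in WT cells, ahead of Tgfb2 at 23.4 and 25.1 CPM per kb. In Vγ6 cells Tgfbr2 led, at 21.9 CPM per kb in those of muscle and 15.4 CPM per kb in those of colon, followed by Tgfb1 at 7.49 and 6.02 CPM per kb. In the whole-muscle groups Tgfb3 averaged 9.17 to 17.4 CPM per kb, Tgfbr2 4.03 to 21.1, Mstn 2.26 to 8.39 and Inhba 0.129 to 1.17.

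WT satellite cells on day 1 differed from WT whole muscle of that day, a separate set of samples, in 6 of the 9 genes. Of all 12983 genes tested, 60.5% differed (edgeR quasi-likelihood test, Benjamini-Hochberg adjusted p below 0.05). Inhba and Tgfb2 were higher, and Tgfb1, Fst, Acvr2b and Mstn were lower. Mstn gave 1 count in the sorted cells and reached the filter on low counts through the muscle libraries, so its direction was set in advance. The sorted cells passed through enzymatic digestion and the muscle did not, so handling and cell type cannot be told apart in this comparison.

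Inhba had 248, 352 and 303 CPM in WT satellite cells, against 7.44, 5.39 and 4.01 CPM in WT whole muscle on day 1. The groups did not overlap, and the difference was 5.35 ± 0.26 on the log2 scale (SE, n = 3 each, edgeR adjusted p = 5.43e-10). Tgfb2 had 127, 137 and 121 CPM in WT satellite cells, against 32.7, 39.3 and 31.4 CPM in WT muscle. All satellite libraries were above all muscle libraries, and the log2 difference was 1.49 ± 0.17 (edgeR adjusted p = 3.67e-06). Markers of fibro-adipogenic progenitors, stromal cells of muscle, were also high in the sort: the 5 of them summed to 3777 to 5073 CPM in WT satellite cells and 1801 to 2138 CPM in WT day 1 muscle. One of these, Pi16, went the other way, with at most 1.15 CPM in WT satellite cells, against at least 58.2 CPM in the muscle. The higher sum in the sorted cells thus came from the other markers. The part of such cells in the Inhba and Tgfb2 levels was not tested. The 3 endothelial markers summed to 1.34 to 2.01 CPM in WT satellite cells, against 170 to 240 CPM in the muscle.

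Mstn gave 0.183, 0 and 0 CPM in WT satellite cells, against 8.80, 8.86 and 22.0 CPM in WT muscle on day 1. That is 1 count in the sorted cells and 216 in the muscle, a level 213-fold lower with a 95% interval of 37.9 to 8459 that covers counting error only. Fst had 0.366, 2.10 and 5.58 CPM in WT satellite cells, against 12.2, 15.3 and 10.1 CPM in WT muscle. Its groups were apart, although the satellite libraries spread widely, and it was lower, at -2.61 ± 0.58 on the log2 scale (edgeR adjusted p = 0.00128). Acvr2b had 3.47, 0.765 and 3.79 CPM in the satellite cells, against 11.7, 10.4 and 13.1 CPM in the muscle. The 3 satellite libraries lay below all muscle libraries, at -2.53 ± 0.47 on the log2 scale (edgeR adjusted p = 0.000328). Tgfb1 had 2.38, 1.15 and 2.99 CPM in the satellite cells, against 4.29, 5.04 and 3.83 CPM in the muscle. The groups did not overlap, but the call was weak, at -1.40 ± 0.47 (edgeR adjusted p = 0.0196), and it was lost in 6 of the 11 settings run, with library size alone (-1.02) and without WT day 1 replicate 1 (-1.33) or 2 (-1.29), or satellite replicate 1 (-1.43) or 2 (-1.06), among them.

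The other 3 genes did not pass the test between WT satellite cells and WT muscle. Tgfb3 had 41.9, 38.8 and 60.8 CPM in the satellite cells, against 43.5, 37.2 and 31.2 CPM in the muscle, with a log2 difference of -0.06 and a 95% interval of -0.58 to 0.45. Tgfbr2 had 109, 108 and 156 CPM against 96.5, 106 and 121 CPM in the muscle, with an interval of -0.62 to 0.23. Tgfbr1 had 23.2, 29.8 and 12.9 CPM against 6.09, 13.4 and 14.99 CPM, with an interval of -0.23 to 1.25. All 3 pairs of groups overlapped.

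Other members of the family passed in both directions in satellite cells, where 60.5% of all genes passed. Of 10 other ligands tested, 3 were higher and 3 lower than in muscle. Bmp2 and Bmp4, ligands of the bone morphogenetic protein branch, were higher by 4.04 ± 0.29 and 2.84 ± 0.36 on the log2 scale (edgeR adjusted p = 3.82e-08 and 9.52e-06). Of 16 genes of latency and activation, 9 were higher and 5 lower. Ltbp1, which stores latent TGF-β in matrix, was higher by 3.78 ± 0.20 (edgeR adjusted p = 1.47e-09). Genes known to respond to TGF-β were higher in 10 and lower in 2 of 19, with a median of 0.67 on the log2 scale against -0.06 over all genes. Pmepa1 was among them, at 2.04 ± 0.21. Of 6 Smads tested, 3 were higher and 0 lower, with Smad3, a transducer of TGF-β and activin signals, at 1.59 ± 0.18.

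Muscle Vγ6 cells differed from whole WT muscle of day 3 in all 9 genes, where 68.3% of 13920 tested genes differed. Tgfb1 and Tgfbr2 were higher and the other 7 lower. Of these 7, Tgfb2, Fst, Inhba, Acvr2b and Mstn gave only 10, 6, 5, 2 and 1 counts in the Vγ6 libraries. They reached the filter on low counts through the muscle libraries, so their lower direction was set in advance. The Vγ6 cells were sorted from mice given no toxin, and the whole muscle came from mice given diphtheria toxin. Handling, toxin and cell type therefore cannot be told apart in this comparison. Tgfb1 had 20.4, 13.1 and 24.4 CPM in muscle Vγ6 cells, against 7.07, 7.20 and 11.2 CPM in WT muscle on day 3. The Vγ6 libraries all lay above the muscle ones, by 1.24 ± 0.36 on the log2 scale (edgeR adjusted p = 0.0085). Tgfbr2 had 178, 183 and 170 CPM in the Vγ6 cells, against 160, 92.3 and 125 CPM in the muscle. These groups were also apart, by 0.54 ± 0.18 (edgeR adjusted p = 0.0188), but the call was lost with DESeq2, with DESeq2's size factors, without Vγ6 replicate 2 and without WT day 3 replicate 2, where it was 0.30.

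Tgfbr1 was lower in muscle Vγ6 cells, at 17.6, 21.0 and 16.2 CPM against 54.4, 51.6 and 40.5 CPM in WT day 3 muscle (log2 -1.36 ± 0.20, edgeR adjusted p = 9.24e-05). Tgfb3 had 1.63, 3.51 and 1.58 CPM in the Vγ6 cells, against 61.4, 48.9 and 40.5 CPM in the muscle (-4.43 ± 0.33). Tgfb2 had 0.163, 1.11 and 0.594 CPM in the Vγ6 cells, against 25.5, 32.1 and 34.1 CPM in the muscle (-5.56 ± 0.48). The groups of these 3 genes did not overlap. Mstn gave 1 count in muscle Vγ6 cells and 87 in the muscle, 101.4-fold lower with a 95% counting interval of 17.7 to 4049. Acvr2b gave 2 and 88 counts, 51.3-fold lower with an interval of 13.8 to 429.9. Inhba and Fst were lower, at -3.35 ± 0.96 and -4.54 ± 0.79 on the log2 scale (edgeR adjusted p = 0.00855 and 0.000306). They rest on 5 and 6 counts in the Vγ6 cells, those of Inhba all in 1 library. The Inhba value ran over -7.12 to -2.71 between settings. Myofibre markers summed to 4.55 to 8.49 CPM in the muscle Vγ6 cells, against 19151 to 60105 CPM in WT day 3 muscle.

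**Figure D2:**
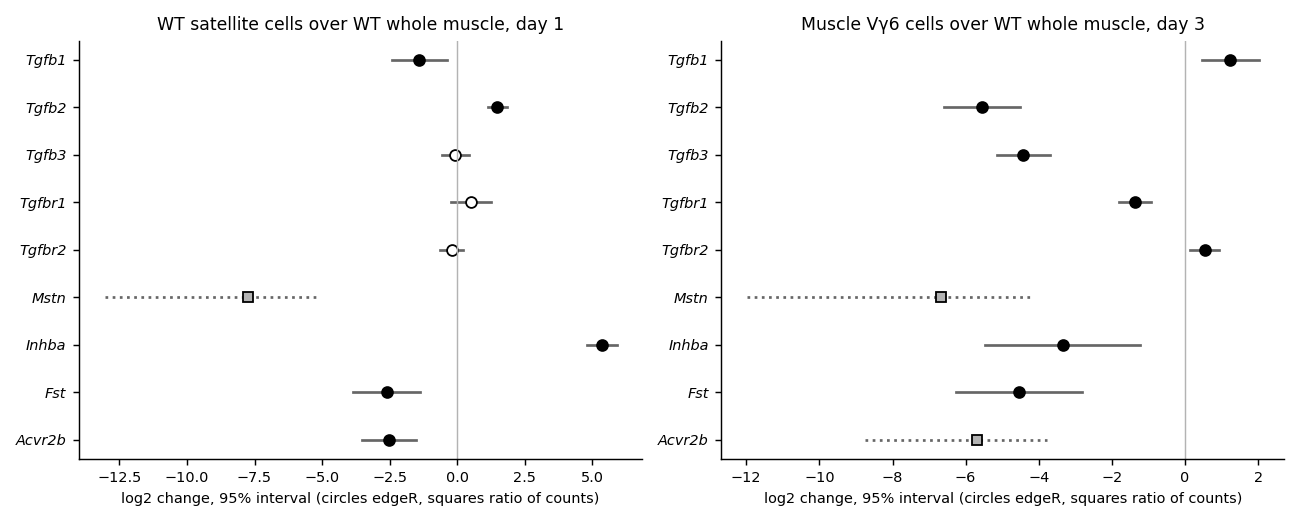
Log2 difference of each gene in WT satellite cells over WT whole muscle on day 1 (left) and in muscle Vγ6 cells over WT whole muscle on day 3 (right), with 95% intervals; filled circles passed the edgeR test, open ones did not, and grey squares are ratios of summed counts for genes with 1 or 2 counts in the sorted cells. Inhba stands at 5.35 on the left and at -3.35 on the right, where the Vγ6 cells gave 5 counts of it.

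Between Vγ6 cells of muscle and colon, 2 of the 4 genes that passed the filter on low counts differed, against 24.5% of 11907 genes tested. The other 5 had too few counts. Tgfb3 had 1.63, 3.51 and 1.58 CPM in muscle cells, against 25.4, 12.9 and 3.39 CPM in colon cells. The colon replicates spread widely, the lowest lay just under the highest muscle library, and Tgfb3 was lower in muscle cells, at -2.64 ± 0.62 on the log2 scale (edgeR adjusted p = 0.00673). Tgfbr2 had 178, 183 and 170 CPM in muscle cells, against 127, 127 and 119 CPM in colon cells. The groups were well apart, by 0.48 ± 0.10 (edgeR adjusted p = 0.00177), and both calls held in all 11 settings run. Tgfb1 had 20.4, 13.1 and 24.4 CPM in muscle cells, against 16.1, 15.7 and 14.6 CPM in colon cells, with an interval of -0.28 to 0.85 on the log2 scale. Tgfbr1 had 17.6, 21.0 and 16.2 CPM against 17.4, 13.9 and 18.6 CPM, with an interval of -0.40 to 0.63. For Tgfb2 the muscle cells gave 10 counts and the colon cells 1, and the ratio was 9.19 with a counting interval of 1.31 to 398.7. Inhba gave 5 counts, all in 1 muscle library, and 0 in colon cells. Fst stayed at or below 0.990 CPM and Acvr2b at or below 0.369 CPM in these 6 libraries, and Mstn gave 1 count in muscle and 4 in colon cells. The tissues differ in injury as well as site, and these cannot be told apart. Among other receptors, Tgfbr3, a co-receptor, was higher in muscle cells (1.26 ± 0.31) and Acvr2a lower (-1.14 ± 0.28, edgeR adjusted p = 0.00709), while 0 of 6 Smads tested differed.

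Over the 4 days, 6 of the 9 genes changed in DTR muscle and 6 in WT muscle, against 56.2% and 53.7% of 18264 genes tested (edgeR test over all days, adjusted p below 0.05). Tgfb1, Tgfbr1, Tgfbr2 and Acvr2b changed in both genotypes. Tgfb2 and Tgfb3 passed in DTR only and Mstn and Inhba in WT only, but the difference between genotypes over time passed the test for none of them.

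Tgfbr1, the type I receptor of TGF-β, had its highest levels on day 3. In DTR muscle Tgfbr1 had 11.3, 17.2 and 14.8 CPM on day 1, 31.0, 32.3 and 47.1 on day 3, 9.74 and 13.8 on day 7, and 11.9, 10.54 and 8.20 on day 14. WT muscle had 6.09, 13.4 and 14.99 CPM of Tgfbr1 on day 1, 54.4, 51.6 and 40.5 on day 3, 18.6, 12.1 and 12.3 on day 7, and 9.51, 7.09 and 8.81 on day 14. Every day 3 library lay above every library of the other days in the same genotype (edgeR adjusted p = 0.000913 in DTR and 1.79e-06 in WT over all days). Of the 9 genes, Tgfbr1 rose and Acvr2b fell on day 3 against day 1 in WT muscle, where 18.9% of all genes passed. Tgfbr1 rose by 1.68 ± 0.29 on the log2 scale (edgeR adjusted p = 5.03e-05), in all 12 settings run. The macrophage markers, 5 genes, summed to 2139 to 2588 CPM in DTR and 2154 to 3597 CPM in WT muscle on day 3, against 360 to 763 and 519 to 809 CPM on day 1, and their part in the Tgfbr1 level was not tested.

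Tgfbr2 had 68.8, 152 and 107 CPM in DTR muscle on day 1, 189, 188 and 136 on day 3, 35.9 and 71.7 on day 7, and 32.2, 47.2 and 20.3 on day 14. In WT muscle Tgfbr2 had 96.5, 106 and 121 CPM on day 1, 160, 92.3 and 125 on day 3, 30.0, 30.8 and 37.0 on day 7, and 52.5, 46.9 and 44.3 on day 14. Days 1 and 3 overlapped in both genotypes, and in WT muscle the log2 difference of day 3 against day 1 was -0.17 with an interval of -0.65 to 0.31. The later days had lower means, and their libraries lay below those of days 1 and 3 except that DTR day 7 replicate 2 stood above the lowest DTR day 1 library (edgeR adjusted p = 3.58e-06 in DTR and 2.72e-05 in WT over all days).

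At day 7 against day 3 in WT muscle, 4 of the 9 genes changed, against 36.9% of all genes. Tgfb1, Tgfbr1 and Tgfbr2 fell and Mstn rose. With libraries scaled by their total alone, the median of all genes in this step moved to -0.74 on the log2 scale, against 0.04 with TMM, so the changes given are relative to the bulk of genes. Tgfbr2 fell by 1.17 ± 0.24 on the log2 scale (edgeR adjusted p = 0.000169) and Tgfbr1 fell by 0.95 ± 0.28 (edgeR adjusted p = 0.0067). Tgfbr1 was at -0.77 with adjusted p = 0.0804 without the 3 libraries high in olfactory transcripts, a setting chosen after seeing the data.

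Tgfb1 had its highest mean on day 3 and its lowest on day 7 in both genotypes. In DTR muscle it had 2.91, 4.76 and 1.51 CPM on day 1, 3.29, 4.84 and 4.70 on day 3, 0.105 and 0.638 on day 7, and 2.45, 2.95 and 0.410 on day 14. In WT muscle Tgfb1 had 4.29, 5.04 and 3.83 CPM on day 1, 7.07, 7.20 and 11.2 on day 3, 0.569, 0.644 and 1.06 on day 7, and 0.750, 2.45 and 1.52 on day 14. Day 3 stood above all other days in WT muscle but overlapped day 1 in DTR muscle (edgeR adjusted p = 0.0398 in DTR and 0.00164 in WT over all days). The fall on day 7 against day 3 in WT muscle was -2.70 ± 0.63 on the log2 scale (edgeR adjusted p = 0.000697). The DTR call was lost without the filter on low counts and without DTR day 3 replicate 2 or 3 or DTR day 7 replicate 1 (adjusted p = 0.288).

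Tgfb2 had 35.6, 39.7 and 30.5 CPM in DTR muscle on day 1, 38.6, 34.3 and 27.6 on day 3, 11.3 and 12.9 on day 7, and 36.7, 29.5 and 42.0 on day 14. In WT muscle Tgfb2 had 32.7, 39.3 and 31.4 CPM on day 1, 25.5, 32.1 and 34.1 on day 3, 17.5, 19.98 and 23.6 on day 7, and 23.8, 24.0 and 21.6 on day 14. Both DTR libraries of day 7 lay under all other DTR libraries (edgeR adjusted p = 0.000661 over all days), and WT muscle gave an adjusted p of 0.132. Tgfb3 had 34.1, 28.8 and 30.1 CPM in DTR muscle on day 1, 51.4, 51.0 and 46.7 on day 3, 25.5 and 53.8 on day 7, and 29.7, 49.7 and 40.0 on day 14. In WT muscle Tgfb3 had 43.5, 37.2 and 31.2 CPM on day 1, 61.4, 48.9 and 40.5 on day 3, 41.8, 43.1 and 37.8 on day 7, and 42.5, 25.3 and 38.0 on day 14. In DTR muscle days 1 and 3 were apart in CPM and the other days overlapped them, and in WT muscle day 3 overlapped day 1. After TMM scaling, which the test uses, the highest Tgfb3 mean was on day 7 in both genotypes. It was 57.8 in DTR and 52.5 in WT muscle, against 37.4 and 36.9 on day 3. The test gave an edgeR adjusted p of 0.0079 in DTR and 0.172 in WT muscle, and the DTR call was lost with library size alone (0.1) and without DTR day 7 replicate 2 (0.0691).

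**Figure D3:**
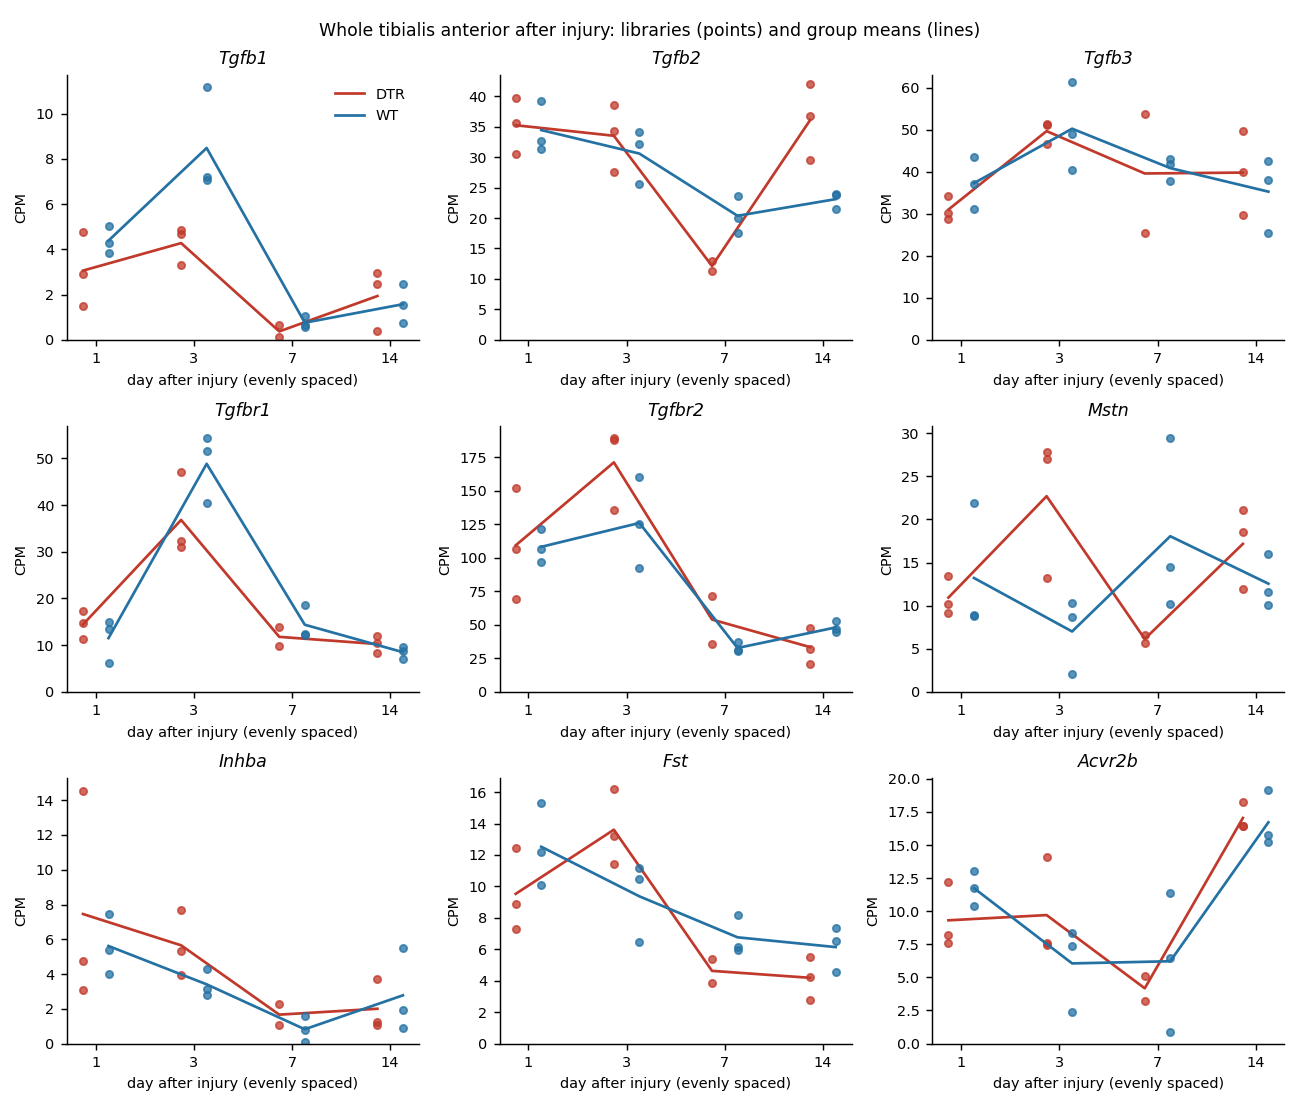
CPM of each gene in whole tibialis anterior by day after injury, with DTR in red and WT in blue; points are libraries, lines join group means and days are evenly spaced. Tgfbr1 averaged 36.8 CPM in DTR and 48.8 CPM in WT muscle on day 3, and Mstn averaged 22.7 CPM in DTR and 6.99 CPM in WT muscle that day.

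In DTR muscle Mstn had 9.08, 13.5 and 10.2 CPM on day 1, 13.2, 27.1 and 27.9 on day 3, 6.60 and 5.65 on day 7, and 18.5, 21.1 and 11.9 on day 14. In WT muscle Mstn had 8.80, 8.86 and 22.0 CPM on day 1, 2.00, 10.3 and 8.66 on day 3, 29.4, 10.2 and 14.5 on day 7, and 16.0, 10.1 and 11.54 on day 14. Its mean was highest on day 7 and lowest on day 3 in WT muscle. Among DTR libraries the mean CPM was highest on day 3 and lowest on day 7, but after TMM scaling day 14 (19.5) stood above day 3 (17.2). The change over days passed in WT muscle (edgeR adjusted p = 0.00384) and not in DTR muscle (0.124). With library size alone the WT call was lost (0.084) and the DTR value passed (0.014). In WT muscle, Mstn rose on day 7 against day 3 by 2.24 ± 0.49 on the log2 scale (edgeR adjusted p = 0.000639), in all 12 settings run, although WT day 7 replicate 2 lay just below the highest day 3 library in CPM. Markers of mature myofibres summed to 19151 to 60105 CPM in WT muscle on day 3 and 114983 to 141504 CPM on day 7, and their part in the Mstn level was not tested.

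Acvr2b, the type II receptor for myostatin and activin, was highest on day 14. In DTR muscle it had 12.2, 8.20 and 7.57 CPM on day 1, 7.46, 14.1 and 7.58 on day 3, 3.25 and 5.10 on day 7, and 16.4, 16.4 and 18.2 on day 14. In WT muscle Acvr2b had 11.7, 10.4 and 13.1 CPM on day 1, 7.38, 2.398 and 8.38 on day 3, 0.853, 6.44 and 11.4 on day 7, and 15.8, 15.3 and 19.1 on day 14. Day 14 stood above all earlier libraries in both genotypes (edgeR adjusted p = 0.0124 in DTR and 0.00249 in WT over all days). In WT muscle Acvr2b fell on day 3 against day 1, at -1.33 ± 0.48 (edgeR adjusted p = 0.0469), which held in 4 of 12 settings and was lost without any one WT day 1 library or without WT day 3 replicate 1 or 2. Acvr2b and Tgfbr1 were the 2 genes that changed on day 14 against day 7 in WT muscle, where 17.3% of all genes passed. Acvr2b rose by 1.36 ± 0.46 and Tgfbr1 fell by 0.91 ± 0.31 on the log2 scale (edgeR adjusted p = 0.0385 and 0.0367). These calls held in 7 and 3 of 12 settings, and leaving out WT day 7 replicate 1 or 2 or any WT day 14 library ended both.

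Inhba had 3.09, 14.5 and 4.73 CPM in DTR muscle on day 1, 3.95, 7.70 and 5.30 on day 3, 1.05 and 2.28 on day 7, and 1.05, 1.26 and 3.69 on day 14. In WT muscle Inhba had 7.44, 5.39 and 4.01 CPM on day 1, 4.31, 3.12 and 2.79 on day 3, 1.56, 0.107 and 0.792 on day 7, and 5.50, 1.91 and 0.911 on day 14. In DTR muscle the order of the means of days 7 and 14 turned with TMM scaling (2.42 and 2.36), and in WT muscle day 7 had the lowest mean. The edgeR adjusted p over all days was 0.224 in DTR and 0.0246 in WT muscle. The WT call was lost without WT day 1 replicate 1, WT day 7 replicate 2 or 3, or the 3 libraries high in olfactory transcripts. At the per-kilobase level of the olfactory genes, a transcript as long as that of Inhba would average 1.86 CPM in DTR and 1.82 CPM in WT muscle on day 14, and 0.794 CPM in WT muscle on day 7, close to the Inhba values of those groups.

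Fst had 7.27, 12.4 and 8.89 CPM in DTR muscle on day 1, 11.4, 13.2 and 16.2 on day 3, 3.88 and 5.38 on day 7, and 2.80, 4.22 and 5.54 on day 14. In WT muscle Fst had 12.2, 15.3 and 10.1 CPM on day 1, 10.46, 6.48 and 11.2 on day 3, 5.97, 6.12 and 8.19 on day 7, and 6.50, 7.36 and 4.55 on day 14. Days 7 and 14 lay under day 1 in both genotypes, but the change over days did not pass in DTR (edgeR adjusted p = 0.0841) or WT muscle (0.137).

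Between DTR and WT muscle, none of the 9 genes passed the threshold at any day. On day 1 the γδ receptor counts were not lower in DTR muscle, at 19 against 15 in WT muscle. With edgeR, the count was 0 of 9 on day 1, 3, 7 and 14, where 0%, 0%, 2.01% and 0.0767% of 18264 genes passed. Over all genes, 777, 873, 3782 and 1045 had an unadjusted p below 0.05 on those days, and DESeq2 called 0, 2, 955 and 66 genes. In CPM the genotypes did not overlap for 0 of the 9 genes on day 1, 3 on day 3, 3 on day 7 and 1 on day 14, where they did not overlap for 10.6%, 10.2%, 29.2% and 14% of all genes tested.

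Mstn had the largest differences. At day 3 it had 13.2, 27.1 and 27.9 CPM in DTR muscle, against 2.00, 10.3 and 8.66 CPM in WT muscle. All 3 DTR libraries lay above all WT libraries, with a log2 difference of 1.80 ± 0.49, a 95% interval of 0.79 to 2.80 and an edgeR adjusted p of 0.449 (unadjusted 0.00113). It passed without the filter on low counts (1.83, adjusted p = 0.000464) and with the replicate number as a block (1.89, 0.0272). At day 7 Mstn had 6.60 and 5.65 CPM in DTR muscle, against 29.4, 10.2 and 14.5 CPM in WT muscle. The DTR libraries then lay below all WT libraries, at -1.35 ± 0.53 with an interval of -2.44 to -0.26 (edgeR adjusted p = 0.151). It passed without the filter on low counts (-1.35, adjusted p = 0.0312), and the value was -0.70 (adjusted p = 0.408) without WT day 7 replicate 1. At day 14 the interval ran over -0.59 to 1.40. Myofibre markers summed to 42069 to 55494.5 CPM in DTR and 19151 to 60105 CPM in WT muscle on day 3, where the ranges overlapped. On day 7 they summed to 143931 to 156281 CPM in DTR muscle, above the 114983 to 141504 CPM in WT muscle. Their part in the Mstn differences was not tested.

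Tgfbr2 had 35.9 and 71.7 CPM in DTR muscle on day 7, against 30.0, 30.8 and 37.0 CPM in WT muscle. The lower DTR library lay within the WT range, the log2 difference was 0.93 ± 0.27 with an interval of 0.40 to 1.47, and the edgeR adjusted p was 0.0525. It was 1.28 (adjusted p = 0.0199) without DTR day 7 replicate 1, 0.50 without replicate 2, and passed without the filter (adjusted p = 0.027). At day 14 Tgfbr2 was at -0.58 with an interval of -1.10 to -0.07 (edgeR adjusted p = 0.786).

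Tgfb2 had 11.3 and 12.9 CPM in DTR muscle on day 7, against 17.5, 19.98 and 23.6 CPM in WT muscle, and 36.7, 29.5 and 42.0 CPM on day 14, against 23.8, 24.0 and 21.6 CPM. DTR was below WT on the first of these days and above it on the second, without overlap. The log2 differences were -0.51 with an interval of -1.01 to -0.01 and 0.63 with an interval of 0.18 to 1.09 (edgeR adjusted p = 0.233 and 0.57). Tgfb1 had 3.29, 4.84 and 4.70 CPM in DTR muscle on day 3, against 7.07, 7.20 and 11.2 CPM in WT muscle. The groups did not overlap, and the interval ran over -2.09 to 0.20 on the log2 scale. Fst had 11.4, 13.2 and 16.2 CPM in DTR muscle on day 3, against 10.46, 6.48 and 11.2 CPM in WT muscle, and 3.88 and 5.38 CPM on day 7, against 5.97, 6.12 and 8.19 CPM. Fst thus stood above WT on one day and below it on the other, with intervals of -0.12 to 1.26 and -1.09 to 0.47 that include 0. Of all genes tested, 7.28% had DTR wholly above WT on one day and wholly below on another, as Mstn, Tgfb2 and Fst did. For Tgfb3, Tgfbr1, Inhba and Acvr2b the intervals included 0 on each of the 4 days.

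**Figure D4:**
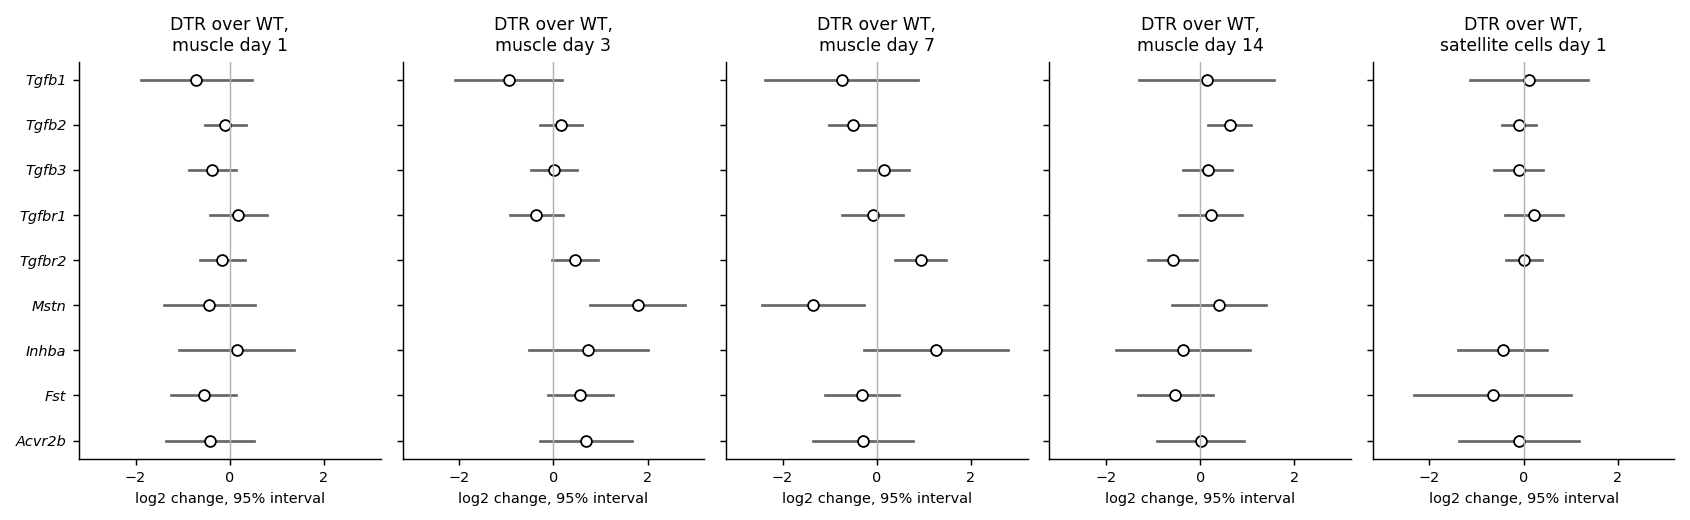
Log2 difference of each gene in DTR over WT libraries, with 95% intervals, in whole muscle at days 1, 3, 7 and 14 and in satellite cells on day 1. All circles are open because none passed the edgeR test at adjusted p below 0.05; Mstn stands at 1.80 on day 3 and -1.35 on day 7, and was not tested in satellite cells.

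Whether the genotype difference itself varied between days was tested with an interaction term, and 0 of 9 genes passed, against 0.608% of all genes (edgeR, 2467 genes at unadjusted p below 0.05; DESeq2 called 580 genes). Tgfbr2 came nearest, with an edgeR adjusted p of 0.077, followed by Mstn with 0.093 and Tgfb2 with 0.228. DESeq2 called Tgfbr2 (adjusted p = 0.0443) and Mstn (0.0123), and both also passed without the filter on low counts.

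In satellite cells on day 1, 0 of the 8 genes tested differed between DTR and WT mice, and 0% of 12081 genes did (edgeR, 719 genes at unadjusted p below 0.05; DESeq2 called 11). Inhba had 102, 241 and 315 CPM in DTR cells, against 248, 352 and 303 CPM in WT cells. The groups overlapped, at -0.44 with an interval of -1.39 to 0.50 on the log2 scale. DTR replicate 1, the lowest for Inhba, also held 2797 CPM of myofibre markers, against at most 33.1 CPM in WT satellite libraries, and Inhba was at -0.09 without it. Tgfb2 had 93.7, 127 and 138 CPM in DTR cells, against 127, 137 and 121 CPM in WT cells, with an interval of -0.46 to 0.27. The 5 markers of fibro-adipogenic progenitors summed to 5174 to 7059 CPM in DTR and 3777 to 5073 CPM in WT satellite cells. These ranges did not overlap, and the part of such cells in the values of this comparison was not tested. Tgfb3 had 56.3, 31.7 and 44.2 CPM against 41.9, 38.8 and 60.8 CPM, with an interval of -0.62 to 0.41. The receptors overlapped too: Tgfbr1 had 30.2, 20.8 and 26.2 CPM in DTR cells, against 23.2, 29.8 and 12.9 CPM in WT cells, and Tgfbr2 had 112, 126 and 137 CPM, against 109, 108 and 156 CPM. Their intervals were -0.39 to 0.83 and -0.38 to 0.39. Tgfb1, Fst and Acvr2b stayed at or below 3.33, 2.28 and 3.46 CPM in DTR cells and 2.99, 5.58 and 3.79 CPM in WT cells. Mstn gave 6 counts, all in 1 DTR library, and 1 count in WT cells, a ratio of 5.48 with a counting interval of 0.665 to 252.2.

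After rIL-17A, 1 of the 8 genes tested passed on day 7, against 34.1% of 12896 genes. Tgfbr1 rose to 20.8 and 31.5 CPM in rIL-17A muscle, against 12.6 and 8.44 CPM in PBS muscle. The groups did not overlap, and the log2 difference was 1.16 ± 0.34 (SE, n = 2 each, edgeR adjusted p = 0.0199). Without rIL-17A replicate 1 it was 1.32 (adjusted p = 0.0522) and without replicate 3 it was 0.92 (0.210). Tgfb1 had 3.42 and 1.67 CPM in rIL-17A muscle, against 0.628 and 0 CPM in PBS muscle. These groups were apart as well, at 2.80 ± 1.17 with an interval of 0.27 to 5.34 and an edgeR adjusted p of 0.0813 on very few counts. Without PBS replicate 1 Tgfb1 passed (adjusted p = 0.00905), where the PBS library left had 0 counts and the fitted value of 6.92 depends on the prior count.

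The other ligands, receptors and Fst did not pass after rIL-17A. Tgfb3 had 56.5 and 61.1 CPM in rIL-17A muscle, against 50.5 and 39.9 CPM in PBS muscle, with an interval of -0.26 to 0.73 on the log2 scale. Tgfb2 had 14.8 and 29.2 CPM against 13.4 and 18.6 CPM (-0.51 to 1.06), and Tgfbr2 had 53.0 and 80.7 CPM against 67.8 and 39.6 CPM (-0.42 to 0.75). Of these 3 genes only Tgfb3 had groups that did not overlap. Mstn had 18.2 and 12.7 CPM in rIL-17A muscle, against 6.15 and 14.4 CPM in PBS muscle (-0.53 to 1.42). Acvr2b had 8.54 and 5.42 CPM against 4.14 and 4.15 CPM, without overlap (-0.53 to 1.78). Fst had 2.80 and 6.25 CPM against 10.7 and 4.15 CPM (-2.15 to 0.39). PBS replicate 3 decided several of these values: without it Mstn was at 1.25 (edgeR adjusted p = 0.0194) and Fst at -1.37 (0.0313). Inhba had 0.311 and 1.46 CPM in rIL-17A muscle, against 6.03 and 0.429 CPM in PBS muscle, and did not reach the filter. Without PBS replicate 3 Inhba was tested and passed, at -2.93 (edgeR adjusted p = 0.0022). The 3 endothelial markers summed to 250 to 254 CPM in rIL-17A and 102 to 116 CPM in PBS muscle and all rose, while the 5 macrophage markers summed to 161 to 231 and 288 to 335 CPM, and their part in the Tgfbr1 rise was not tested.

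Of 18 genes of latency and activation, 1 passed between DTR and WT muscle on day 7, where 2.01% of all genes did: Furin, the protease that cleaves the TGF-β precursors. It had 3.56 and 4.65 CPM in DTR muscle, against 11.4, 16.97 and 24.3 CPM in WT muscle. The groups were apart, and Furin fell by 1.84 ± 0.29 on the log2 scale (edgeR adjusted p = 0.000477), in all 12 settings run. After rIL-17A, Furin had 21.9 and 14.4 CPM, against 2.76 and 3.29 CPM in PBS muscle. It rose by 2.45 ± 0.45 (edgeR adjusted p = 0.00163), with an adjusted p of 0.0523 without rIL-17A replicate 1. Both PBS libraries lay below all WT libraries of day 7 in the time course, so the controls of the separate experiments differed in Furin. Vγ6 cells of muscle had 364, 353 and 402 CPM of Furin, against 70.4, 60.4 and 54.2 CPM in WT muscle on day 3 (2.65 ± 0.14, edgeR adjusted p = 1.4e-08). The interaction of genotype and day passed for Furin as well (edgeR adjusted p = 0.0172), but not without DTR day 7 replicate 1 or 2, without WT day 7 replicate 3 or with the replicate number as a block.

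**Figure D5:**
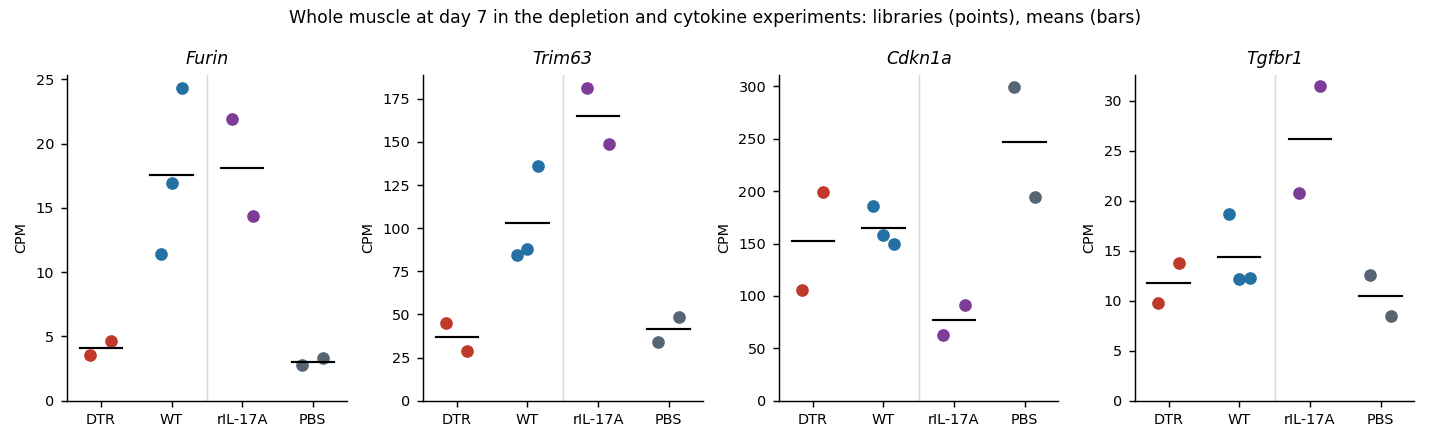
CPM of Furin, Trim63, Cdkn1a and Tgfbr1 in whole muscle on day 7, with DTR and WT of the time course left of the line and rIL-17A and PBS of the cytokine experiment right of it; points are libraries and bars are means, and the genes were chosen after their values were seen. Furin and Trim63 were lower in DTR than in WT and higher in rIL-17A than in PBS muscle, while Tgfbr1 overlapped between DTR and WT. For Furin and Trim63, both PBS libraries lay below all WT libraries of the time course. The controls of the separate experiments thus differed too.

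Among 11 genes that myostatin and activin signals are known to act on in muscle, or that mark growth and differentiation there, 1 rose and 1 fell in DTR muscle on day 7. On that day 2.01% of all genes passed. Trim63, a ubiquitin ligase of muscle atrophy, had 44.8 and 29.0 CPM in DTR muscle, against 84.6, 88.1 and 136 CPM in WT muscle. It fell, at -1.20 ± 0.29 on the log2 scale (edgeR adjusted p = 0.0241), in 9 of 12 settings, and was lost without WT day 7 replicate 3 or DTR day 7 replicate 2. Igf1, a growth factor for muscle, rose by 0.99 ± 0.27 (edgeR adjusted p = 0.0443) in 6 of 12 settings, with 43.3 and 115 CPM against 43.5, 55.3 and 36.0 CPM, so that the groups overlapped. Without DTR day 7 replicate 2, Igf1 was at 0.28. At day 14, where 0.0767% of all genes passed, 1 of the 11 rose. Cdkn1a, an inhibitor of the cell cycle, had 130, 84.3 and 149 CPM in DTR muscle, against 37.5, 43.1 and 46.5 CPM in WT muscle. The groups were apart by 1.50 ± 0.25 (edgeR adjusted p = 0.00239), and the call was lost without WT day 14 replicate 1 or DTR day 14 replicate 3.

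Of 19 genes known to respond to TGF-β, 1 passed between DTR and WT on day 7 (Bhlhe40, which fell by 0.999 ± 0.22) and 1 on day 14. Of all genes, 2.01% and 0.0767% passed on these days. Klf10, an early TGF-β-induced factor, had 28.7, 26.6 and 30.3 CPM in DTR muscle on day 14, against 9.51, 11.7 and 7.59 CPM in WT muscle. All DTR libraries stood above all WT libraries, by 1.55 ± 0.26 on the log2 scale (edgeR adjusted p = 0.00239). The call was lost without DTR day 14 replicate 3, where the adjusted p was 0.051. Klf10 was also the one gene of these lists whose interaction of genotype and day held in all 29 settings run (edgeR adjusted p = 0.00773). The median of the 19 genes was 0.17 on day 14, against 0.01 over all genes. In WT muscle itself, 10 of the 19 fell and 0 rose on day 14 against day 7, with a median of -1.11 against -0.03 over all genes. Of all 18264 genes tested, 2408 fell and 757 rose in that step, 17.3% together. Klf10 was at -2.03 ± 0.25, Skil at -1.90 ± 0.31 and Timp1 at -1.94 ± 0.33. The macrophage markers fell in the same step, in 4 of 5 genes, and their part was not tested. The lists of other ligands (14 genes), other receptors (11), Smads (8) and inhibitors (19) had 0 genes past the threshold between DTR and WT muscle at any day.

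After rIL-17A, where 34.1% of all genes passed, 7 of the 11 genes of myostatin and activin signals, growth and differentiation fell and 1 rose. Their median was -1.01 on the log2 scale, against 0.05 over all genes. The list mixes genes of muscle atrophy, growth and differentiation, so its count and median give no direction of signalling. Cdkn1a had 62.7 and 91.3 CPM in rIL-17A muscle, against 299 and 195 CPM in PBS muscle (-1.83 ± 0.24, edgeR adjusted p = 0.000235). Trim63, the 1 that rose, had 181 and 149 CPM against 34.3 and 48.3 CPM (1.85 ± 0.26, edgeR adjusted p = 0.000304). Acvr2a, the relative of Acvr2b, rose in rIL-17A muscle to 20.2 and 26.7 CPM, against 7.66 and 3.86 CPM in PBS muscle. The groups were apart by 1.87 ± 0.39 (edgeR adjusted p = 0.00357), in all 9 settings run. Of the TGF-β response genes 5 of 16 fell and 1 rose, with Postn at -1.67 ± 0.32 and Col1a1 at 0.97 ± 0.23. Latency and activation genes rose in 5 and fell in 1 of 15, with Ltbp4 at 1.84 ± 0.24 (edgeR adjusted p = 0.000197). Inhibitors fell in 3 and rose in 0 of 18, and other ligands passed in 0 of 8 (edgeR), where the median was -0.73. The 6 myofibre markers summed to 117092 to 129121 CPM in rIL-17A muscle, against 147721 to 159253 CPM in PBS muscle, and the 5 satellite cell markers to 196 to 252 against 108 to 122 CPM. Neither pair of ranges overlapped, and the part of these markers in the list counts was not tested. Between DTR and WT satellite cells these lists had 0 genes past the threshold.

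The genes whose course over the 23 time-course libraries was most like that of each member were found by Pearson's r of log2 CPM over 10491 genes. The libraries share days, depth and cell makeup, so these values are descriptions. Tgfbr1 was closest to Ppt1 (r = 0.92), Abcg1 (0.91) and Tacc3 (0.91), and Tgfbr2 to Klf3 (0.91), Pdgfra (0.91) and Txndc5 (0.89). Pdgfra is a defining marker of fibro-adipogenic progenitors. Tgfb1 was closest to Rnf219 (0.85), Zc3h4 (0.85) and Prrc2c (0.85), Tgfb2 to Plec (0.81), Clec16a (0.80) and Arfgap2 (0.80), and Tgfb3 to Zdhhc4 (0.82) and Cpq (0.79). Mstn was closest to Amy1 (0.77), Gdap1 (0.74) and Myo5c (0.73). Inhba was closest to Ptgir (0.85), Mamld1 (0.79) and Map6 (0.79), and Fst to Oaf (0.77), Stx2 (0.74) and Pdgfrb (0.73). Acvr2b was closest to Ppip5k1 (0.84), Myh7 (0.82) and Uckl1os (0.82). Myh7 encodes the slow myosin heavy chain.

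In the order of group means, Vγ6 cells led for Tgfb1, with 19.3 CPM in those of muscle and 15.5 CPM in those of colon, ahead of WT muscle on day 3 with 8.48 CPM, and the ranges of the last pair were apart. The satellite cells led for Tgfb2, with 120 CPM in DTR and 128 CPM in WT cells, and for Inhba, with 219 and 301 CPM; the next groups were DTR muscle on day 14 with 36.1 CPM of Tgfb2 and on day 1 with 7.45 CPM of Inhba, and their ranges lay apart from those of the satellite cells. Acvr2b was led by day 14 muscle, at 17.04 CPM in DTR and 16.7 CPM in WT, apart from the next group. For Tgfb3 the muscle and satellite groups overlapped their neighbours over 31.0 to 58.8 CPM. Neighbouring groups of Tgfbr1 and of Fst overlapped throughout.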

How the data were processed

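RNA was measured as polyA RNA in whole tibialis anterior muscle and in sorted satellite and Vγ6 T cells of mice. Reads were aligned with STAR 2.7.3a to mm10 and counted with featureCounts of Subread 2.0.0, per the submitters' processing notes. The deposited table holds raw counts per gene for 39 libraries. Annotation, kit, strand setting and treatment of multi-mapping reads: not given in the sources used here, so reads of a gene and of an overlapping or antisense gene cannot be told apart. All columns matched a labelled sample. No 2 replicates agreed within sampling noise by a chi-square test of their counts, and the labels call the samples of a condition separate biological replicates.

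From these counts, levels were computed as CPM (counts scaled to the column total), and per kilobase of the longest transcript where genes are compared. Totals were 2372139 to 10974862 counts. PCR copies are not separate molecules, so counting intervals and the floor of 3 counts cover counting error only. Differences were tested with edgeR 4.0.16 (R 4.3.3, limma 3.58.1) by its robust quasi-likelihood F-test after TMM normalisation and filterByExpr by group (minimum count 10, minimum total 15). P-values were adjusted by Benjamini-Hochberg over all genes tested, with 0.05 as the threshold. The 23 time-course libraries were fitted together in 8 groups; every other comparison used its own libraries. The procedure was checked on simulated data. The alternatives were DESeq2 1.42.0, DESeq2's size factors, library totals with no TMM, all genes unfiltered, a replicate block, a fit on each day alone and leaving out each library in turn; leaving out 3 libraries high in olfactory transcripts and taking off their level were added after seeing the data.

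The 9 genes and the pathway and marker lists were chosen with earlier results of these data known. All 9 are named whatever their test; from each list at most the 4 genes with the smallest adjusted p per comparison were named, and the 3 genes most like each member by Pearson's r of log2 CPM (prior count 2), with a mean of at least 5 CPM. Sequences are from RefSeq's promoter table for GRCm38.p6, and gene positions from GENCODE for GRCm38. Some genes that these rules name are not reported here.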

Additional observations from a re-analysis of the deposited data

Results flagged for a closer look

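For Mstn, Tgfb2 and Fst, DTR libraries lay wholly above WT libraries on one day after injury and wholly below them on another, as they did for 7.28% of all genes tested. Mstn stood above at day 3 and below at day 7, and its interaction of genotype and day gave an edgeR adjusted p of 0.093. Tgfb2 stood below at day 7 and above at day 14, with an adjusted p of 0.228. Fst stood above at day 3 and below at day 7, with an adjusted p of 0.453. Day 7 rests on 2 DTR libraries against 3 WT libraries, and 29.2% of all genes did not overlap on that day, against 10.2% on day 3 and 14% on day 14. None of the 3 interactions passed the threshold.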

How the results depend on the processing

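The counts of genes called among the 9 moved by over 1.5 times in 6 of the 15 comparisons. The interaction of genotype and day had 0 genes called, against 2 without the filter on low counts, 1 with the replicate number as a block, 2 with DESeq2 and 0 to 1 with a library left out. For WT muscle at day 3 against day 1 the count was 2, against 1 with DESeq2's size factors, 1 with library size alone, 4 with DESeq2 and 1 to 3 with a library left out. At day 14 against day 7 it was 2, against 1 with DESeq2's size factors, with library size alone, without the filter or with DESeq2, and 0 to 2 with a library left out. Between DTR and WT it was 0 at day 3, against 1 without the filter and 1 with the block, and 0 at day 7, against 2 without the filter and 0 to 1 with a library left out. After rIL-17A it was 1, against 0 to 4 with a library left out, where the lone library of an arm is assumed to vary like the rest. Of 26 single differences called, 0 changed sign under any setting, against 33 of 75 that were not called. At day 7 against day 3 in WT muscle with library size alone, Tgfb3 was at -0.30, and Tgfb2 was at -0.58 and passed (adjusted p = 0.0266), against 0.50 and 0.20 with TMM. The causes were not tested.

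Replicate numbers did not pair the samples: same-numbered libraries correlated at -0.0764 to 0.0865 in their deviations from group means. The block moved 2 counts by over 1.5 times, both named above, through Mstn.

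Over all genes, calls between DTR and WT at day 7 were 368, against 955 with DESeq2, 137 with the block, 608 with library size alone, 92 from that day alone and 189 without the 3 libraries high in olfactory transcripts, chosen after seeing the data. The interaction had 111, against 580 with DESeq2, 519 without the filter and 211 with library size alone. At day 14 they were 14, against 66 with DESeq2, 55 without the filter, 36 with the block and 80 from that day alone. At day 1 and 3 they were 0, against 17 and 34 without the filter; satellite cells had 0, against 101 unfiltered and 11 with DESeq2. Taking off the olfactory level moved 11 of 126 group means, of which Inhba at day 7 in WT muscle came to 0.0275 CPM. Group sizes of 2 and 3 and low counts of Tgfb1, Inhba and Mstn limit what could be detected.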

Other observations

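The inhibin subunit Inha, which pairs with the Inhba product to form inhibin, changed over the WT time course. It rose by 4.16 ± 0.41 on the log2 scale at day 7 against day 3 (edgeR adjusted p = 3.62e-10), with 25.0, 11.3 and 14.9 CPM at day 7, against 1.08, 2.16 and 1.96 CPM at day 3. Gdf11, the closest relative of myostatin, rose in the same step by 1.75 ± 0.36 (edgeR adjusted p = 0.000154) and fell by 1.09 ± 0.36 at day 14 against day 7. Gdf3 fell by 4.84 ± 0.63 at day 7 against day 3 (edgeR adjusted p = 1.01e-07).

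Bhlhe40, listed among the TGF-β response genes, had 223, 192 and 213 CPM in muscle Vγ6 cells, against 1263, 1439 and 988 CPM in colon Vγ6 cells (-2.59 ± 0.12 on the log2 scale, edgeR adjusted p = 1.53e-09). Mymk, the fusion factor of myoblasts, had 39.9, 31.6 and 34.6 CPM in DTR muscle at day 14, against 15.5, 8.72 and 11.54 CPM in WT muscle, and 36.7, 35.9 and 24.5 CPM at day 3, against 61.5, 65.5 and 63.1 CPM. On neither of these days did Mymk pass the edgeR test between DTR and WT muscle. Its interaction of genotype and day gave an edgeR adjusted p of 0.0261, which was lost without DTR day 3 replicate 3, WT day 14 replicate 2 or 3, or DTR day 14 replicate 3.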
